A study of Saccharomyces cerevisiae with 12 samples.

Results

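The genes described here are 52 budding yeast (Saccharomyces cerevisiae) genes for nucleolar ribosomal RNA processing and ribosome assembly factors. They were listed by systematic name, with earlier results of these data known. Of these, 50 had a measured value in the table of 6100 genes. NOP10 and ENP2 had none and were not analysed here. The study followed wild type cells of strain DBY8778 and cells deleted for USV1 (YPL230W), a gene for a zinc finger protein, into stationary phase, the state that yeast enters when a culture runs out of nutrients. RNA of each culture was hybridised on a 2-colour microarray against RNA labelled only as a reference. The 6 wild type arrays are labelled 0, 3, 5, 7 and 9 hours and 1 day. Those of the deletion carry the same labels with 2 in place of 3 hours, so that each strain and time has 1 array, 12 in all. The labels give neither the medium, nor the background genotype of the deletion strain, nor how many clones it came from, nor what culture state 0 hours stands for.

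Ribosome assembly starts in the nucleolus, where RNA polymerase I copies a long precursor RNA that holds the RNAs of both subunits. Small nucleolar ribonucleoproteins (snoRNPs) guide its modification: those with a box C/D RNA methylate it and those with an H/ACA RNA convert uridines to pseudouridine. The U3 snoRNP and the UTP proteins form the small-subunit processome on the first part of the precursor, which is then cut, while helicases, GTPases and scaffold proteins shape the large subunit, which is handed on through the nucleoplasm to export. In yeast this set of genes is known to be expressed in growing cells and turned down together with the ribosomal protein genes when nutrients run short.

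Each value is the authors' deposited log ratio, taken here as log2 and shifted so that the median gene of an array stands at 0. A positive value was read as more RNA in the sample than in the reference, which is likely and not stated. The basis is USV1 itself, which in wild type stood at -0.57, 0.50, 0.28, 4.40, 3.94 and 2.59 in order of time and in the deletion at -1.0, -2.46, -1.40, 1.14, -0.98 and -0.29. It was lower in the deletion at each of the 5 shared times, although the deletion array at 7 hours was not low. Arrays held 5931 to 6085 values, and the SD over genes ran from 0.488 at 3 hours in wild type to 1.63 at 5 hours in the deletion. No pair of arrays was strongly opposed, the lowest correlation over genes being -0.07. The number of arrays limits the precision, and since nothing says that cultures were repeated, each p-value sets a change against the scatter between time points and strains.

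The assembly genes were near the array median at the start and far below it later. In wild type the median of the measured members stood at -0.46, -0.29, -0.68, -2.40, -2.20 and -1.42 in order of time. In the deletion it stood at -0.09, -0.15, -3.51, -2.32, -1.60 and -1.66. The low level was thus present by 7 hours in wild type and by 5 hours in the deletion. Between 5 and 7 hours in wild type, 39 of 49 members with both values were at least 2-fold lower, against 18.2% of all genes. Between 2 and 5 hours in the deletion, 45 of 48 were at least 2-fold lower, against 21.5% of all genes. These steps set 1 array against another and have no replicate check. The 5-hour array of wild type resembled the early arrays and that of the deletion the later ones, and a real difference in timing cannot be told apart from a swapped or mistimed 5-hour array. Cytosolic ribosomal protein genes, for comparison, had medians of 0.30, 0.30, 0.08, -3.50, -2.70 and -2.25 in wild type and 0.15, 0.26, -3.46, -2.92, -2.28 and -2.74 in the deletion.

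**Figure D1:**
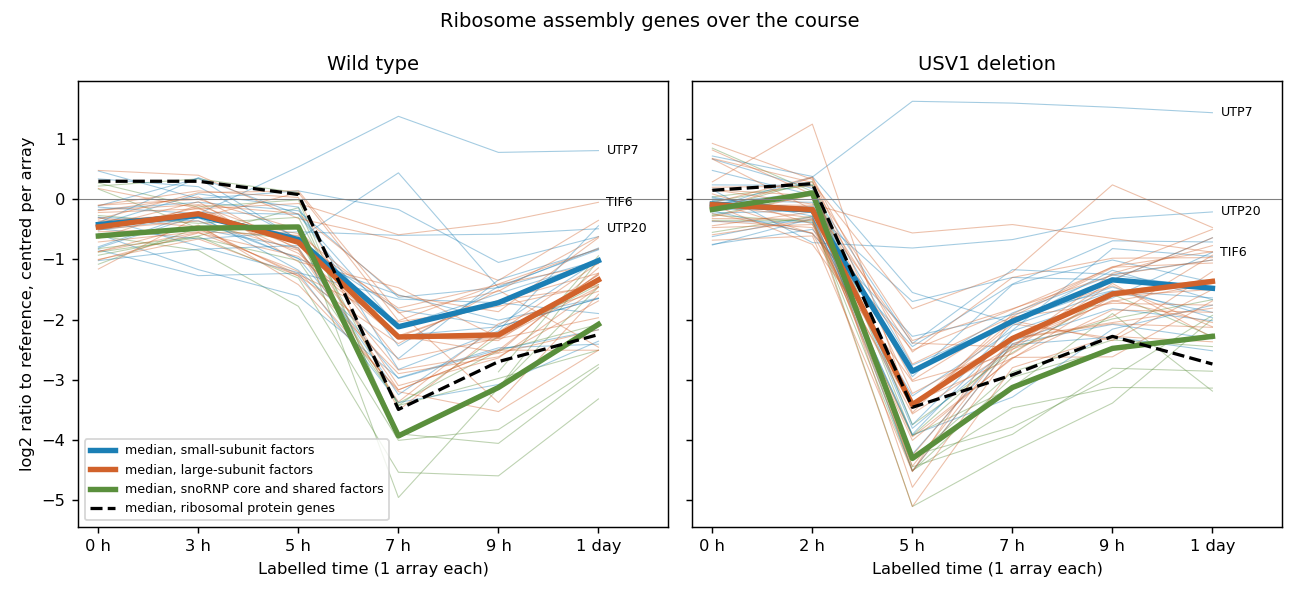
Log2 ratio to the reference (vertical axis, each array centred on its median gene) of every measured assembly gene against labelled time (1 array at each time) in wild type and in the USV1 deletion. Thin lines are genes, thick lines are the medians of small-subunit, large-subunit and snoRNP or shared factors, and the dashed line is the median of ribosomal protein genes; the lines drop between 5 and 7 hours in wild type and between 2 and 5 hours in the deletion, and UTP7 runs above 0.

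Wild type at 5 hours was already slightly lower than at 3 hours, before the large step. Of 49 members, 37 were lower and 12 higher at 5 hours, where 51.1% of all genes were higher, with a median difference of -0.39, and 2 were at least 2-fold lower, where 1.75% of all genes were. The large-subunit factors were lower in 20 of 23 cases (median difference -0.50) and the small-subunit factors in 12 of 17 (median -0.32), while ribosomal protein genes differed by a median of -0.21. The lowest wild type array was the one at 7 hours for 31 of the 48 members with all 6 values, against 22.3% of all genes. It was the one at 9 hours for 13 more, against 14.6% of all genes. In the deletion the 5-hour array was lowest for 44 of 48, against 23.2% of all genes.

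The fall was tested by setting the 4 arrays at 7 and 9 hours against the 4 arrays at 0 and 2 or 3 hours, over both strains. Of the 49 members that could be tested, 46 fell and 1, UTP7, rose (limma, Benjamini-Hochberg adjusted p under 0.05 over 5925 genes). Over all genes 27.5% were called lower and 28.5% higher. The members' median change was -1.93, against 0.08 for all genes. Every array at 7 and 9 hours was below every early array for 44 of the 49, against 25.4% of all genes, and above for 1, against 27.1%. With the 5-hour arrays of both strains counted as early, 5 members were called lower, and 752 of all genes were. With each time point as a term of its own over the shared times, 0 hours alone stands for early. In that fit 11 members were called lower, and 561 of all genes were.

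The snoRNP cores and the factors shared by both subunits had the largest median changes of the roles. The box C/D proteins, which are the methyltransferase NOP1 (fibrillarin in animals) and its scaffold partners NOP56 and NOP58, all fell, with a median of -3.34. NOP58 (YOR310C) stood at -0.61, -0.85, -1.78, -4.54, -4.60 and -3.32 in wild type and at -0.55, -0.28, -5.11, -4.20, -3.39 and -1.99 in the deletion. Its later arrays were all far below its early ones, and it fell by 3.61 (SE 0.24, limma adjusted p = 1.53e-08). NOP56 (YLR197W) stood at 0.17, -0.48, -0.46, -4.96, -3.14 and -1.01 in wild type and at -0.27, 0.08, -4.52, -2.96, -2.48 and -2.24 in the deletion. It too had no overlap between the periods and fell by 3.26 (SE 0.42, limma adjusted p = 7.10e-06), with the lowest value of any member on the 7-hour wild type array.

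All 3 measured proteins of the H/ACA core fell, with a median of -2.76. CBF5 (YLR175W), the pseudouridine synthase (dyskerin in humans), stood at 0.27, -0.13, -0.01, -3.97, -3.13 and -1.46 in wild type and at 0.85, 0.13, -4.31, -2.87, -2.34 and -2.45 in the deletion. It fell by 3.36 (SE 0.32, limma adjusted p = 3.06e-07). NHP2 (YDL208W), an RNA-binding member of the core, stood at -0.27, -0.40, -0.30, -3.43, -2.28 and -1.42 in wild type and at -0.17, 0.30, -3.75, -2.55, -1.58 and -2.28 in the deletion. It had the smallest fall of this group, at -2.33 (SE 0.32, limma adjusted p = 1.71e-05), with its early and late arrays still apart. GAR1, which lacked a value at 7 hours in wild type, changed by -2.76 (SE 0.40).

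All 3 factors that act on both subunits fell, with a median of -2.84. HAS1 (YMR290C), a DEAD-box helicase, stood at -0.82, -0.62, -1.31, -4.01, -3.83 and -2.75 in wild type and at -0.35, -0.35, -4.51, -3.47, -3.13 and -3.14 in the deletion. It fell by 3.08 (SE 0.22, limma adjusted p = 2.48e-08). RRP5 (YMR229C), an RNA-binding protein needed for cuts on the way to both subunits, stood at -0.88, -0.64, -1.02, -3.39, -2.52 and -2.08 in wild type and at -0.26, -0.38, -3.93, -2.46, -1.99 and -1.67 in the deletion. Its fall of -2.05 (SE 0.23, limma adjusted p = 2.02e-06) was the smallest of these 3, and no late array reached an early one. NSR1, the yeast nucleolin, was not measured at 2 hours in the deletion and changed by -2.84 (SE 0.30).

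Among the small-subunit factors 15 of 17 fell, with a median of -1.34 for all 17. The 5 members of the UTP-A and UTP-B subcomplexes, which bind the precursor RNA first, all fell, with a median of -1.24. UTP15 (YMR093W) of UTP-A stood at -0.42, 0.09, -0.13, -2.83, -2.19 and -0.44 in wild type and at 0.67, 0.18, -3.81, -2.42, -2.29 and -2.52 in the deletion. It fell by 2.56 (SE 0.36, limma adjusted p = 1.90e-05), with the 1-day arrays of the strains far apart. UTP13 (YLR222C) of UTP-B stood at 0.34, 0.21, -0.66, 0.44, -1.47 and -1.02 in wild type and at -0.23, -0.19, -1.70, -1.30, -1.34 and -0.64 in the deletion. Its 7-hour wild type array was as high as its early ones, and its change of -0.95 (SE 0.33, limma adjusted p = 0.0225) was no longer called when any 1 of 4 arrays was left out: wild type 0 hours (adjusted p = 0.0506), wild type 9 hours (0.105), deletion 7 hours (0.0667) or deletion 9 hours (0.0504).

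The 5 factors of the U3 snoRNP and the IMP-MPP10 complex all fell, with a median of -1.75. RRP9 (YPR137W), a protein specific to the U3 snoRNP, stood at -0.84, -1.27, -1.23, -3.38, -3.08 and -2.36 in wild type and at -0.62, -0.29, -3.92, -3.29, -2.16 and -1.76 in the deletion, and fell by 2.22 (SE 0.25, limma adjusted p = 1.79e-06). IMP3 (YHR148W), which helps U3 to pair with the precursor, stood at -0.30, -0.78, -1.22, -1.66, -1.72 and -1.90 in wild type and at -0.76, -0.32, -2.86, -1.89, -1.26 and -1.48 in the deletion, and fell by 1.09 (SE 0.22, limma adjusted p = 0.000673). Both kept late arrays below all early arrays. IMP3 fell least of this group, and in wild type its lowest array was the one at 1 day.

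The other processome and later small-subunit factors were the most mixed group: 5 of 7 fell, 1 rose and 1 was not called. UTP14 (YML093W), which activates a processome helicase, stood at -0.30, -0.36, -0.98, -2.98, -2.50 and -2.17 in wild type and at -0.02, -0.05, -4.52, -2.40, -2.08 and -2.32 in the deletion, and fell by 2.31 (SE 0.21, limma adjusted p = 2.31e-07). UTP22, a processome protein that works with RRP7, changed by -0.76 (SE 0.25, limma adjusted p = 0.0187), with early and late arrays overlapping. That call was lost without the wild type array at 0 hours (adjusted p = 0.0652), the wild type array at 9 hours (0.0808) or the deletion array at 7 hours (0.0748). The methyltransferase DIM1, the late factor ENP1 and NOC4, the partner of NOP14, changed by -2.05, -2.24 and -1.82.

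UTP7, a WD-repeat protein of the processome, went the other way. The gene (YER082C) stood at -0.13, -0.24, 0.54, 1.38, 0.78 and 0.81 in wild type and at -0.13, 0.37, 1.63, 1.60, 1.53 and 1.44 in the deletion. All its arrays at 7 and 9 hours were above all its early arrays, and it rose by 1.36 (SE 0.22, limma adjusted p = 6.67e-05). In the RefSeq gene order UTP7 lies tail to tail with SER3, an enzyme of serine synthesis, which rose by 1.96 (SE 0.28, limma adjusted p = 3.00e-05). Its neighbour on the other side, GET2, changed by 0.10 (SE 0.26, limma adjusted p = 0.749). The annotated genes do not overlap, and whether RNA of a neighbour adds to the UTP7 value was not tested. UTP20 (YBL004W), a large repeat protein of the processome, was at or below the array median except at 0 hours in the deletion. It stood at -0.49, -0.66, -0.54, -0.60, -0.58 and -0.49 in wild type and at 0.16, -0.72, -0.81, -0.67, -0.32 and -0.21 in the deletion. Its change was -0.12 (SE 0.23, limma adjusted p = 0.680), with early and late arrays intermixed.

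Among the large-subunit factors 22 of 23 fell, with a median of -1.78 for all 23. The 3 RNA helicases all fell. DBP3 (YGL078C) stood at -0.10, 0.14, 0.03, -3.51, -2.21 and -1.06 in wild type and at 0.29, 1.25, -3.55, -1.91, -1.12 and -0.87 in the deletion. It fell by 2.58 (SE 0.32, limma adjusted p = 5.33e-06), and its 2-hour deletion array held the highest value of any member at an early time. MAK5 (YBR142W) stood at -0.38, -0.24, -0.73, -2.29, -1.68 and -1.45 in wild type and at -0.09, -0.75, -3.03, -2.57, -1.54 and -1.33 in the deletion. It fell by 1.66 (SE 0.26, limma adjusted p = 5.09e-05), with late arrays below all early ones.

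The PeBoW complex (NOP7, ERB1 and YTM1), a scaffold for large-subunit precursor cutting, fell as a whole, with changes of -2.28, -2.72 and -1.76. ERB1 (YMR049C) stood at -0.31, -0.46, -1.28, -3.20, -3.53 and -2.51 in wild type and at 0.09, -0.41, -4.01, -2.63, -2.62 and -1.69 in the deletion (SE of its change 0.22, limma adjusted p = 5.63e-08). YTM1 (YOR272W) stood at -0.46, -0.04, -1.04, -1.47, -2.30 and -1.26 in wild type and at -0.04, -0.57, -3.47, -2.07, -2.31 and -1.20 in the deletion (SE of its change 0.24, limma adjusted p = 1.27e-05). Both were clear of their early values at 7 and 9 hours, and YTM1 had the smaller step at 7 hours in wild type.

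Of the other nucleolar large-subunit factors 11 of 11 fell, between -1.32 and -2.47. MAK16 (YAL025C), which binds pre-ribosomes with RPF1, stood at -0.10, 0.0, -0.50, -2.29, -2.35 and -1.25 in wild type and at 0.93, 0.33, -4.52, -2.41, -1.68 and -2.05 in the deletion, and fell by 2.47 (SE 0.27, limma adjusted p = 1.38e-06). NOP2 (YNL061W), an rRNA methyltransferase, stood at -0.54, -0.49, -1.25, -2.04, -1.78 and -1.42 in wild type and at 0.16, 0.06, -2.54, -1.30, -0.98 and -0.97 in the deletion, and fell by 1.32 (SE 0.20, limma adjusted p = 3.82e-05). These were the largest and the smallest falls of the group, and neither gene's periods overlapped. The Brix-domain proteins BRX1, RPF1, RPF2 and SSF1 changed by -2.24, -1.52, -2.38 and -1.68. SSF1 has a near-identical paralogue, SSF2, so the value of one may hold signal of the other. CIC1 was left out of the test because it lacked both the 3-hour and the 2-hour value: it stood at -0.86, -0.58, -1.87, -3.38 and -1.58 at the other wild type times and at -0.34, -3.44, -2.02, -2.35 and -1.50 in the deletion.

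The GTPases and the nucleoplasmic and export factors had the smallest median of the large-subunit groups, -1.21, and 5 of 6 fell. SDA1 (YGR245C), needed for export of the large subunit, stood at 0.18, -0.15, -0.90, -2.27, -2.55 and -1.14 in wild type and at 0.67, -0.17, -3.38, -2.45, -1.23 and -0.77 in the deletion, and fell by 2.26 (SE 0.27, limma adjusted p = 4.22e-06). TIF6 (YPR016C), which keeps the subunits from joining too early, stood at -0.22, -0.16, -0.07, -0.59, -0.39 and -0.05 in wild type and at 0.16, -0.08, -0.56, -0.42, -0.65 and -0.88 in the deletion. Its arrays at 7 and 9 hours were all just below its early ones, but its change of -0.44 (SE 0.22, limma adjusted p = 0.106) was not called. The GTPases NUG1, NOG1 and NOG2 changed by -1.21, -1.22 and -1.16, and NMD3, an adaptor for export, by -2.0.

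**Figure D2:**
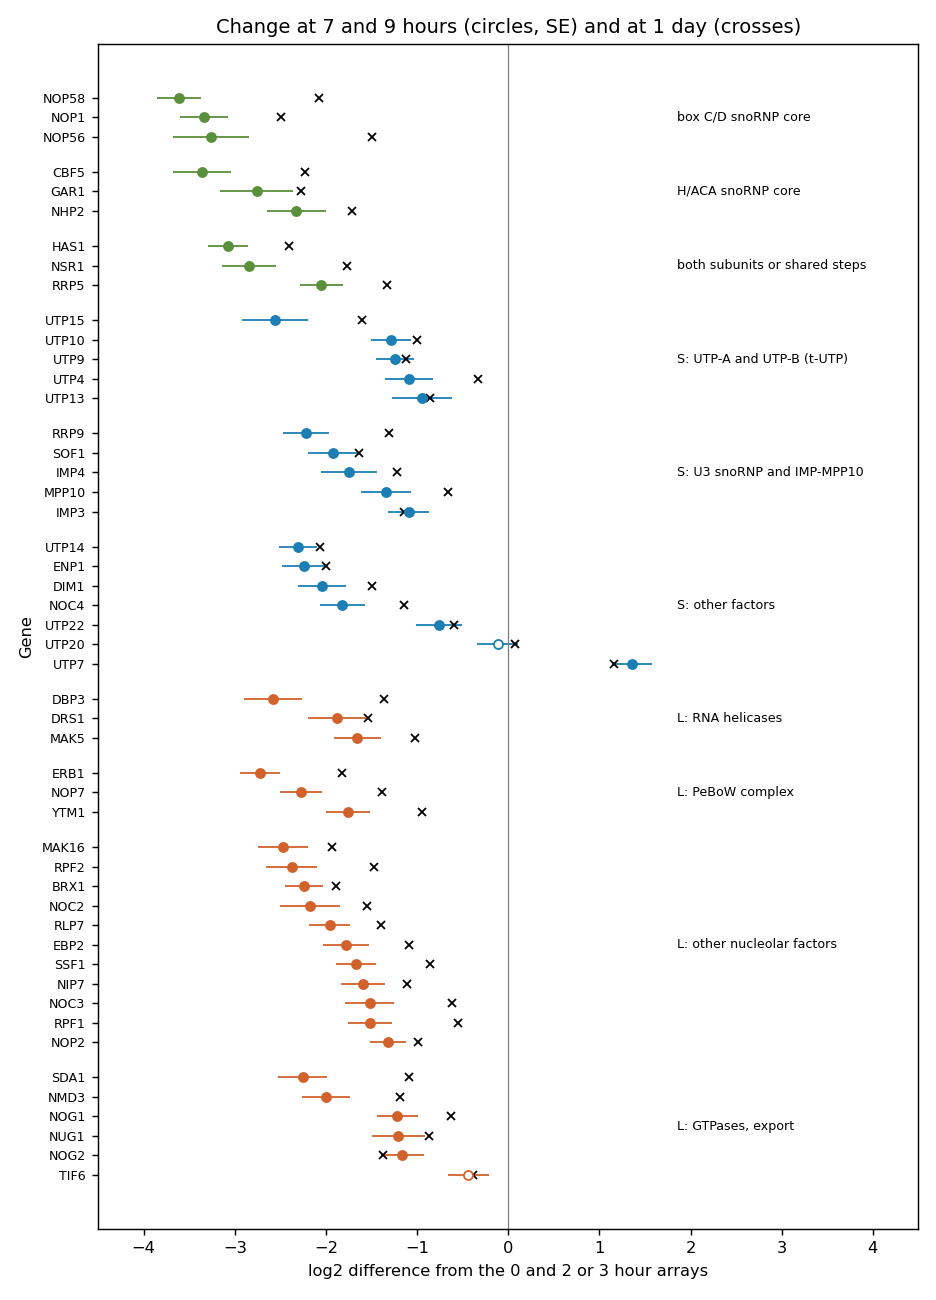
Log2 difference of the 7 and 9 hour arrays from the 0 and 2 or 3 hour arrays over both strains (circles with SE, filled where limma called the change) and of the 1-day arrays from the same early arrays (crosses), for the 49 tested genes ordered by role (S marks small-subunit and L large-subunit groups). UTP7 is the filled circle right of 0, UTP20 and TIF6 are open, and most crosses lie to the right of their circles.

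**Figure D3:**
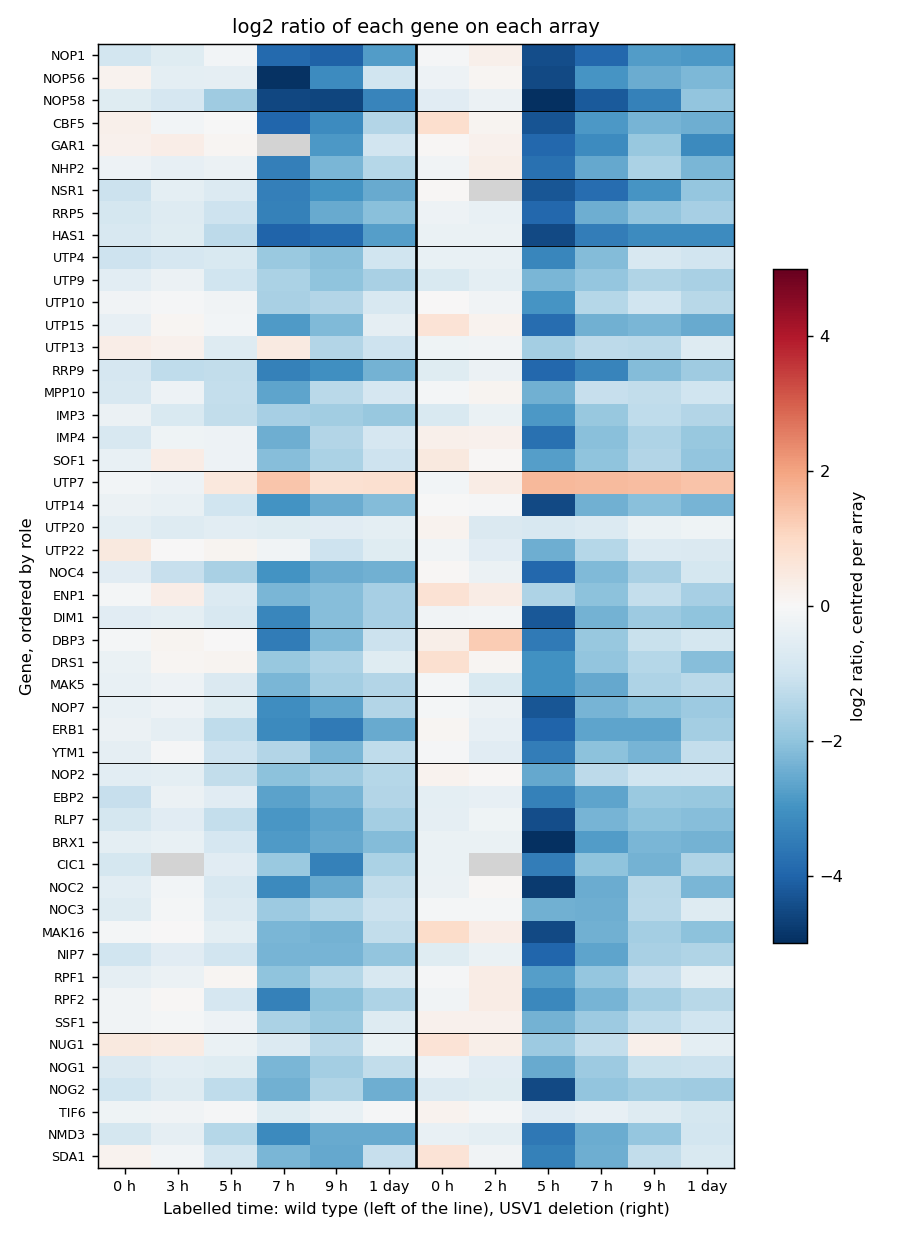
Log2 ratio of each measured gene (lines, ordered by role) on each of the 12 arrays (columns, in order of time within a strain), with blue below and red above the array median and grey for a missing value. Blue columns start at 7 hours in wild type and at 5 hours in the deletion, and UTP7 is the red line.

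Small-subunit and large-subunit factors became low between the same arrays in each strain. Their medians were within 0.05 of each other on the early arrays and on the 5-hour array of wild type. Small minus large was 0.04, -0.03 and 0.05 on those wild type arrays and then 0.17, 0.54 and 0.32 from 7 hours to 1 day. The deletion gave 0.01 and -0.01 on its early arrays, followed by 0.56, 0.29, 0.24 and -0.12 from 5 hours to 1 day. The small-subunit median was thus the higher on all 5 arrays at 7 and 9 hours and at 5 hours in the deletion, by differences smaller than the range within either class. The snoRNP and shared factors were lower than both: their median was -3.94 and -3.13 at 7 and 9 hours in wild type, and -4.31, -3.13 and -2.48 at 5, 7 and 9 hours in the deletion. These are medians of single arrays and were not tested.

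Over both strains together, most assembly genes at 1 day were somewhat above their 7 and 9 hour levels, and still far below their early ones. In wild type the members' median was -1.42 at 1 day, against -2.40 and -2.20 at 7 and 9 hours. In the deletion it was -1.66, against -2.32 and -1.60, so not above its 9-hour array. From 7 and 9 hours to 1 day over both strains, 1 of 49 members, NOP58, rose by adjusted p. limma called 0.489% of all genes higher and 0.287% lower. At an unadjusted p under 0.05 there were 22 members, all upward. Of all 5925 genes, 992 had such a p, 560 of them upward and 432 downward. The estimate was above 0 for 46 of the 49 members and for 3088 of the 5925 genes, with a median of 0.63 for the members against 0.03 for all genes. The members' median was 0.29 without the wild type array at 1 day and 0.89 without the deletion array at 1 day. Both 1-day arrays were above all arrays at 7 and 9 hours for 14 of 49 members, against 9.05% of all genes, and below them for none, against 9.37%. These were 10 of 23 large-subunit factors, 1 of 17 small-subunit factors and 3 of 9 snoRNP or shared factors. The rise of NOP58 was 1.53 (SE 0.30, limma adjusted p = 0.0231), and it was no longer called without the wild type array at 9 hours (adjusted p = 0.0655), the deletion array at 7 hours (0.0890) or the deletion array at 1 day (0.151).

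The estimate of NOP56 was larger, at 1.76, but had a wider error and was not called (SE 0.51, limma adjusted p = 0.103). The third in size was DBP3, at 1.22 (SE 0.39, limma adjusted p = 0.134). Without the deletion array at 9 hours NOP56 was called, at 2.05 (adjusted p = 0.0410). The smallest were those of NOG2, UTP7 and IMP3, at -0.21, -0.20 and -0.06, none called. NOG2 (YNR053C) stood at -1.0, -0.66, -1.27, -2.40, -1.51 and -2.46 in wild type and at -0.68, -0.61, -4.53, -1.96, -1.73 and -1.76 in the deletion, so that its 1-day arrays lay among or below those at 7 and 9 hours.

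Against the early arrays, 38 of 49 members were lower at 1 day and 1, UTP7, was higher (limma, adjusted p under 0.05), where 21.1% and 21.7% of all genes were. The median was -1.31, and for 43 of 49 both 1-day arrays were below every early array, against 26.3% of all genes. All 9 snoRNP and shared factors, 11 of 17 small-subunit and 18 of 23 large-subunit factors were called lower. Leaving out 1 array gave medians of -1.42 to -1.07. The count of members called lower also changed, most without the deletion array at 1 day. With the 5-hour arrays counted as early no member was called lower, where 152 of all genes were. With each time point as a term no member was called lower either, where 76 of all genes were.

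The later steps were compared one array with the next. The 5-hour deletion array and the 7-hour wild type array are the lowest for most members, so a step that starts there is upward by construction and is given as a description. In the deletion, 47 of 50 members were higher at 7 hours than at 5 hours, against 51.2% of all genes. At least 2-fold higher were 28 of the members, against 7.67% of all genes. The members' median difference was 1.06. From 7 to 9 hours 44 of 50 members were higher (median 0.56), against 51.5% of all genes, and from 9 hours to 1 day 24 of 50 (median -0.02), against 47.9%. In wild type 33 of 49 were higher at 9 than at 7 hours (median 0.30), against 54.1% of all genes. At 1 day 47 of 50 were higher than at 9 hours, against 50.8%, 17 of them at least 2-fold, against 5.73% of all genes, with a median of 0.60. Ribosomal protein genes in the deletion differed by a median of -0.41 over that last step and in wild type by 0.51. Each step rests on 1 array at either end.

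The change from early to 7 and 9 hours was also tested within each strain. In wild type 44 of 49 members fell and UTP7 rose, where limma called 23.2% of all genes lower and 21.5% higher. In the deletion 43 fell and UTP7 rose, where 20.5% and 20.9% were called. The medians were -1.85 and -1.89. The test of the difference between these changes called none of the 49 and 0% of all genes. No member reached an unadjusted p under 0.05, while 315 of all 5925 genes did. NOP56 had the smallest p of the members, with a change 1.27 higher in the deletion (SE 0.67, limma adjusted p = 0.891). NSR1 followed, with a change -1.0 lower (SE 0.56, limma adjusted p = 0.896), and then NOP7, at 0.59 (limma adjusted p = 0.905). With the 5-hour arrays counted as early, none of the members was called lower in wild type or in the deletion, where 2 and 1 of all genes were. With them counted as late, none of the members and 0 of all genes were called lower in wild type.

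NSR1 (YGR159C) stood at -1.08, -0.47, -0.68, -3.43, -2.98 and -2.51 in wild type and at 0.05, -4.26, -3.79, -2.96 and -1.93 in the deletion, where 2 hours is missing. Its early value in the deletion is a single array, the highest of its 0 and 3 hour values, so its difference rests on that array. NOP7 (YGR103W) stood at -0.36, -0.24, -0.62, -3.10, -2.64 and -1.46 in wild type and at -0.09, -0.31, -4.26, -2.31, -2.05 and -1.81 in the deletion. Its values at 7 and 9 hours were the higher in the deletion and its early values were alike.

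At single shared times the strains were furthest apart at 5 hours. There 49 of 50 members were lower in the deletion, against 48.2% of all genes, with a median difference of -2.79, and UTP7 was the one that was higher. This difference rests on the same 5-hour arrays, for which a swap or a mistimed sample was not tested. At 0 hours 43 of 50 were higher in the deletion, against 51.8% of all genes, with a median of 0.41, and these included all 24 large-subunit factors. Ribosomal protein genes at 0 hours differed by a median of -0.09, with 53 of 135 higher. At 7 hours 31 of 49 were higher in the deletion, against 56.2% (median 0.21), and at 9 hours 45 of 50, against 53.7% (median 0.56). At 1 day 24 of 50 were higher, against 52.1%, with a median of -0.01. With 1 array for each strain and time, strain, culture and array cannot be told apart here.

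Over 7 hours, 9 hours and 1 day together the strain difference was called for 0 of 50 members, where limma called 0% of all genes higher in the deletion and 0.0329% lower. At an unadjusted p under 0.05 there were 7 members, all higher in the deletion. Of all 6086 genes, 676 had such a p, 397 of them higher in the deletion and 279 lower. The estimate was above 0 for 38 of 50 members and for 3490 of the 6086 genes, with a median of 0.28 for the members against 0.08 for all genes. The median of the members was 0.07 without the 9-hour array of either strain and 0.49 without either 1-day array. NOC4 (YPR144C) had the smallest p: it stood at -0.58, -1.17, -1.61, -2.97, -2.47 and -2.41 in wild type and at 0.04, -0.28, -3.91, -2.19, -1.64 and -0.88 in the deletion. It was higher in the deletion at all 3 late times, by 1.05 (SE 0.29, limma adjusted p = 0.322). NOP58, at 0.96 (SE 0.30, limma adjusted p = 0.361), was likewise higher in the deletion at all 3 late times. NMD3 (YHR170W) stood at -0.87, -0.43, -1.42, -3.17, -2.51 and -2.51 in wild type and at -0.36, -0.47, -3.57, -2.49, -1.95 and -0.93 in the deletion, a difference of 0.94 (SE 0.31, limma adjusted p = 0.361), widest at 1 day.

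**Figure D4:**
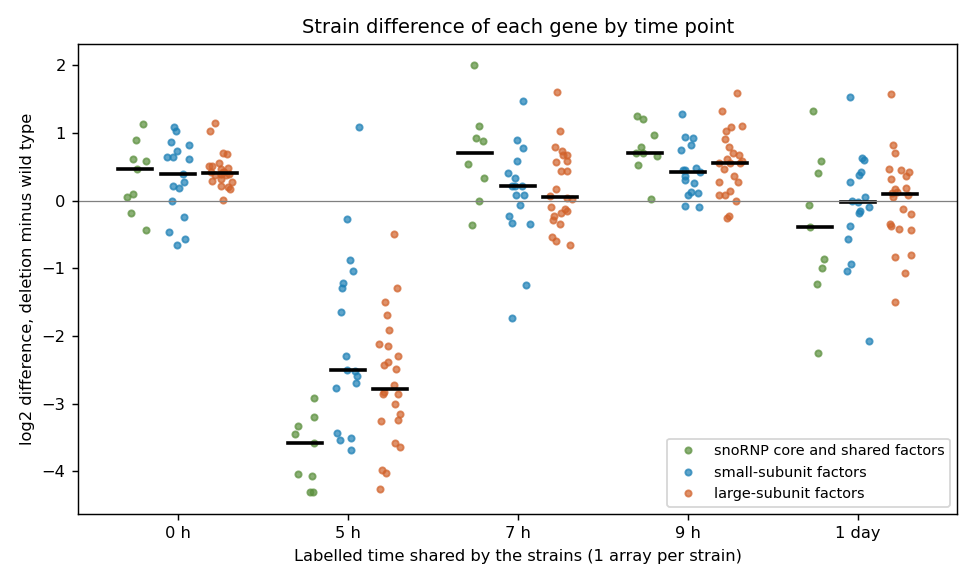
Deletion minus wild type in log2 ratio for each measured assembly gene (points) at the 5 labelled times that both strains share, with colours for snoRNP or shared, small-subunit and large-subunit factors and a black bar at the median of each. The points lie far below 0 at 5 hours, mostly above 0 at 0 and 9 hours, and around 0 at 1 day.

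Most other genes of the pathway fell too. Of 84 tested, 77 fell from early to 7 and 9 hours and 0 rose (limma), where 27.5% and 28.5% of all genes did. Their median change was -1.48. The largest falls were those of SNU13, which belongs to box C/D snoRNPs and to the spliceosome, at -3.45 (SE 0.33), of the large-subunit stalk assembly factor MRT4, at -2.85 (SE 0.35), and of NOP15, an RNA-binding large-subunit factor, at -2.71 (SE 0.22). The values nearest to 0 or above it were those of the giant ATPase REA1 (-0.11), IPI1 of the complex that works with it (0.22) and the late small-subunit kinase RIO1 (0.54, limma adjusted p = 0.0855), none of them called. All 135 tested ribosomal protein genes fell, where 27.5% of all genes did, with a median of -3.16, against -1.93 for the members.

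RNA polymerase I, which makes the precursor RNA, fell with the assembly genes in 7 of 8 genes tested, where 27.5% of all genes fell. The median change was -2.17. The changes were -1.89 for RPA190, -2.45 for RPA135, -3.58 for RPA49, -2.75 for RPA43, -2.56 for RPA34, -0.71 for RPA14 and -1.68 for RPA12. Its initiation factor RRN3 changed by -0.45 (SE 0.22, limma adjusted p = 0.0912) and was not called. Known regulators of the assembly genes or of the ribosomal protein genes were also looked up. Of 8 tested, 3 were called higher and 2 lower, where limma called 28.5% and 27.5% of all genes. These counts are near the shares over all genes. The repressors STB3, DOT6 and CRF1 rose, by 0.87 (SE 0.23), 1.03 (SE 0.24) and 1.59 (SE 0.21). TOD6, the paralogue of DOT6, fell by 1.20 (SE 0.26) and the kinase SCH9 fell by 0.60 (SE 0.23). The activators SFP1, IFH1 and FHL1 were not called, with changes of -0.21, -0.54 and -0.65. CRF1, a corepressor of ribosomal protein genes, stood at 0.19, -0.16, -0.10, 1.31, 1.60 and 2.43 in wild type and at 0.25, 0.10, 1.42, 1.91, 1.91 and 3.33 in the deletion. It was highest at 1 day in both strains and rose by 1.20 from 7 and 9 hours to 1 day (SE 0.26, limma adjusted p = 0.0414).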

How the data were processed

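Total RNA of each sample was hybridised with a reference RNA in the second channel, per the labels. The authors deposited 1 log ratio for each gene and array, used here as log2 values; no source used here states the log base, scanner, background correction or normalization. Deposited array medians ran from -0.11 to 0.03, and each array was centred on its median. Of 6100 systematic names, 5592 matched a RefSeq locus tag (assembly R64), which gave names and neighbours.

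limma 3.58.1 in R 4.3.3 (lmFit, eBayes, Benjamini-Hochberg) fitted period and strain, with 6 residual degrees of freedom, with each 5-hour array given a term of its own. Genes needed at most 1 missing value in each of the early and the 7 and 9 hour periods and none at 1 day. A strain by period fit (4 residual degrees of freedom) gave changes within strains, and a strain and time fit on the 6 arrays at 7 hours, 9 hours and 1 day (2 residual degrees of freedom, at most 1 missing value) the strain difference. Time points stood in for replicates. The fits were tested on simulated data. Other scalings, gene filters, groupings of the 5-hour arrays and left-out arrays were tried.

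The members, lists, periods and tests were chosen with earlier results of these data known. Values on every array are given for the largest and smallest change in each role, the 3 largest and 3 smallest differences between 1 day and 7 and 9 hours, and the 3 smallest p in each strain test. CIC1, NOP10 and ENP2 did not enter the tests over periods. Promoter sequence was not used here.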

Additional observations from a re-analysis of the deposited data

Results flagged for a closer look

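For 4 members, the strains moved in opposite ways between 7 and 9 hours and 1 day. In wild type the 1-day value was above each 7 or 9 hour value present. In the deletion it was below both. The deletion's change minus that of wild type was -2.605 for GAR1, -2.235 for UTP15, -1.50 for DRS1 and -0.785 for TIF6. GAR1 was 1.93 higher at 1 day in wild type and changed by -0.675 in the deletion, where its wild type value rests on the 9-hour array alone because 7 hours is missing. UTP15 was 2.07 higher in wild type and changed by -0.165 in the deletion. DRS1 differed by 1.09 and -0.41, and TIF6 by 0.44 and -0.345. The difference between the strains was not tested, since each has 1 array at 1 day. This check was made for the members only and the share over all genes was not computed, so the count of 4 is a description and no result about the members.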

How the results depend on the processing

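Without centring, with robust eBayes and with only complete genes, the counts of members called in the comparisons of periods and strains stayed within 1.5 times those reported. Members are counted here in 1 direction: higher for 1 day against 7 and 9 hours, lower for the other comparisons of periods. The strain tests count both directions, as do the counts over all genes. With quantile normalization the members called were 0 from 7 and 9 hours to 1 day, 23 from early to 1 day and 21 for wild type alone, the median changes were -1.20 and 0.26, and small minus large was 0.39 at 9 hours in wild type and 0.32 at 5 hours in the deletion. With the 5-hour arrays as early, members called were 5 from early to 7 and 9 hours, 0 for each strain alone and 0 for both comparisons of 1 day. With them among 7 and 9 hours, they were 0 for wild type, 0 for 1 day against 7 and 9 hours and 6 for 1 day against early. With each time point as a term they were 11 from early to 7 and 9 hours, 0 for 1 day against 7 and 9 hours and 0 for 1 day against early. Leaving out 1 array gave 44 to 47, 0 to 3 and 20 to 39 members for these 3 comparisons in that order, 40 to 44 for wild type and 36 to 44 for the deletion. Over all genes, early to 7 and 9 hours called 3314, and 1533 or 1139 with the 5-hour arrays as early or time as a term. 1 day against 7 and 9 hours called 46, and 2 (quantile), 3 (5 hours as early), 9 (5 hours as late), 1 (time as a term) and 22 to 135 (leaving out 1 array). 1 day against early called 2538, and 416, 1413, 255 and 1494 (without the deletion at 1 day). Wild type called 2648, and 1452 (quantile), 12 and 1 with the 5-hour arrays as early and late. The deletion called 2456, and 15, 1446, 1577 and 1609 (without 0 or 7 hours). The strain tests called 0 to 6 genes.

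Changes of sign were as follows; none of these values was called and the cause was not tested. UTP20 from early was 0.35 with quantile normalization and -0.268 to 0.0702 leaving out 1 array. With the 5-hour arrays as late, 1 day against 7 and 9 hours was 0.0783 for IMP3 and 0.12 for NOG2, and leaving out 1 array gave -0.24 to 0.12 and -0.486 to 0.0663. The strain difference in change was -0.53 for NOP56 and -0.85 for NOP7 with the 5-hour arrays as late, 1.19 for NSR1 with them as early, and -1.41 to -0.58 for NSR1 leaving out 1 array, which gives no value without its 0-hour deletion array. NOP58 between strains was -0.078 over all 5 shared times. The strain difference over 0, 7 and 9 hours and 1 day was added after seeing the data and called 0 members. Promoter motifs were not run, and leaving out a 5-hour array gives no value, since neither enters these contrasts. No paired analysis was possible because each strain and time has 1 array and the labels carry no replicate numbers.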

Other observations

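In the RefSeq order 20 of the 52 members have a neighbour that starts from the same intergenic stretch and runs the other way. Of such neighbours on none of the lists, 17 were tested from early to 7 and 9 hours, and 8 fell and 4 rose by limma, where 27.5% of all genes fell and 28.5% rose, so the 4 that rose are no more than the share over all genes. The 4 that rose stand beside genes that fell: COX17, a copper chaperone for cytochrome oxidase, rose by 1.81 (SE 0.25) beside DRS1. MRPL6, a mitochondrial ribosomal protein, rose by 1.15 (SE 0.26) beside IMP3. TDA1, a kinase, rose by 1.08 (SE 0.35) beside HAS1, and GTF1, a subunit of a mitochondrial amidotransferase, rose by 0.67 (SE 0.22) beside NOP7. One divergent pair joins a member and a pathway gene, SSF1 and RRP3, where RRP3 fell by 1.43 (SE 0.28).

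Systematic names that matched no RefSeq locus tag were tested next to 5 members. All 5 were called lower at 7 and 9 hours by limma, where 27.5% of all genes were. YGR160W changed by -3.18 beside NSR1, YOR309C by -2.93 beside NOP58 and YLR198C by -2.49 beside NOP56. YPR136C changed by -1.18 beside RRP9 and YNL060C by -1.17 beside NOP2. Whether the spots of these 5 also bind RNA of the member was not tested. Neighbours with a locus tag but no gene name did not fall where they could be tested. YLR001C beside NOC3, YHR052C-B beside CIC1 and YPR137C-B beside RRP9 were not tested. YPR015C rose by 1.91 (SE 0.27) beside TIF6. YMR050C beside ERB1 and YBL005W-A beside UTP20 changed by 0.325 and 0.50 and were not called.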
